A study of Homo sapiens with 26 samples.

Results

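These are the exons that the authors called as sources of EZH2-associated small RNA in U87MG cells and in neither of the other lines of the study. They were chosen by a rule that reads the calls themselves: an exon of the U87MG list was kept when it shared no base, on either strand, with any exon of the T98G or K562 list. The rule kept 233 of the 669 U87MG exons (34.8%, 95% Wilson interval 31.3 to 38.5). Of the other 436 U87MG exons, 357 were also in the T98G list alone, 78 were in both other lists and 1 was in the K562 list alone. These 436 are called shared exons below and serve as the comparison.

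U87MG and T98G are established glioblastoma lines, and K562 is an established chronic myeloid leukaemia line. For each line, RNA was co-precipitated with an antibody against EZH2 (Active Motif) or with IgG2a, or taken as input without antibody. Small RNA libraries were made with an NEBNext small RNA kit and products of 20 to 50 bases were kept. The labels give 2 EZH2, 2 IgG and 2 input libraries for U87MG, the same for T98G, and 1 of each for K562. They also give 2 libraries of long RNA for each of these precipitates in T98G, 1 EZH2 iCLIP library in T98G, and polyadenylated RNA from U87MG cells treated with siRNA against EZH2 (siEZH2, 2 libraries) or GFP (siGFP, 2 libraries). No source used here says whether the 2 libraries of a group came from separate cultures, and each line is a single line, so a difference between lines is a difference between single models. The lists hold no value for any single library. Read depth is unknown, a call carries no replicate error, and whether an exon missing from the T98G or K562 list had fewer reads there or fell just under a threshold cannot be told apart.

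EZH2 is the catalytic subunit of Polycomb repressive complex 2 (PRC2), which methylates histone H3 at lysine 27 and keeps target genes silent. PRC2 binds many RNAs, and which of them matter for its function is debated. Small RNA library kits join an adapter to the 3′ end of each RNA, and the primer for reverse transcription pairs with it. Mispriming, the subject named in the title of the study, is the case in which such a primer pairs inside an RNA that happens to carry adapter-like letters, so that the cDNA starts there. The adapter starts with AGATCGG, which is background knowledge of such kits; the labels do not give it.

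The letters AGATCG were found on the RNA strand of 22 of the 233 exons. Each window in this selection is the coding sequence around such a match on GRCh37 (hg19), read from the genome 5′ to 3′ on the RNA strand, with up to 30 bases before the match and up to 12 after it, ending at the exon or coding border where that comes sooner. Capitals mark AGATCGG where all 7 letters are present and AGATCG otherwise. They are shown because they are what a primer complementary to the start of the adapter could pair with. The order of those shown is by match length and then by place in the genome.
ADAM23, exon 23, chr2:207459515-207459563, plus strand: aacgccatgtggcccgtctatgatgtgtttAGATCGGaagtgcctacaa
DENND5A, exon 10, chr11:9191439-9191487, minus strand: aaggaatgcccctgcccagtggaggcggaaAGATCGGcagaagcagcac
EMG1, exon 1, chr12:7080166-7080211, plus strand: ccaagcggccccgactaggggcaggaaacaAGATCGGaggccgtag
GREB1L, exon 15, chr18:19034446-19034494, plus strand: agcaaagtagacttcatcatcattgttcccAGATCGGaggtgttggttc
KIF14, exon 9, chr1:200572967-200573009, minus strand: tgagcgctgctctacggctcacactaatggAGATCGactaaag
KIF21B, exon 10, chr1:200969845-200969890, minus strand: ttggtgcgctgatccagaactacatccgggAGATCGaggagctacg
ITGAV, exon 14, chr2:187514567-187514609, plus strand: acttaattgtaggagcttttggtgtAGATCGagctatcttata
DOCK3, exon 42, chr3:51393557-51393604, plus strand: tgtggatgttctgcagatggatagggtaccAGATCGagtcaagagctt
FAM102A, exon 9, chr9:130707083-130707130, minus strand: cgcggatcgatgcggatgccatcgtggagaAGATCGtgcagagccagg
TM9SF3, exon 5, chr10:98319444-98319491, minus strand: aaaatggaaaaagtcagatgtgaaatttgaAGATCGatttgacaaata
ZNF219, exon 3, chr14:21560025-21560072, minus strand: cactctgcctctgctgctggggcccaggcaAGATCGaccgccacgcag

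The genes behind these windows have varied functions. ADAM23 is a membrane protein of the ADAM family found at neuronal surfaces. DENND5A acts on Rab GTPases, EMG1 is a methyltransferase of ribosome assembly, KIF14 and KIF21B are kinesins, ITGAV is the integrin alpha V subunit, DOCK3 activates the GTPase Rac in neurons and ZNF219 is a zinc finger factor. Coding matches in PRPF8 (2 sites), COL1A1, RNF213 and TTC28 came later in the order and are not printed, and 1 further coding site is not reported here. Outside coding sequence, the match lay in a 3′ UTR (ELMOD1, ABCD4 and B4GALT6), in a 5′ UTR (ZNF710) or in exonic sequence without an annotated reading frame (COG4 with 2 sites, and WDR59). Of 24 sites in all, 17 were coding, 4 were in a UTR and 3 were in non-coding sequence.

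Matches were not at the very start of their exons. The distance from the exon's first base to the match ranged from 17 to 1945 bases with a median of 135. At least 20 exonic bases lay before the match at 23 of 24 sites. Exons with AGATCG had a median width of 190 bp, and the distances that width alone would give were not worked out. The lists give no peak inside the U87MG exons, so it is unknown whether the sequenced small RNA ended at these letters.

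The motif was on the RNA strand far more often than on the opposite strand. The search used nested matches of 4 to 7 letters, from AGAT to AGATCGG, so each longer match is also counted under the shorter ones, and the opposite strand was searched for the reverse complement. AGAT was read on the RNA strand in 184 exons (79.0%, 73.3 to 83.7) and on its complement in 127 (54.5%, 48.1 to 60.8). AGATC was on the RNA strand of 88 (37.8%) and on the opposite strand of 59 (25.3%). For AGATCG the counts were 22 (9.44%, 6.32 to 13.9) on the RNA strand and 3 (1.29%, 0.439 to 3.72) on the complement. For AGATCGG they were 7 (3.0%, 1.46 to 6.07) and 1 (0.429%). The RNA strand led at each match length, and the counts at 7 letters are too small to compare with those at 6. The strands were not compared in annotated coding exons, so whether such a lead is usual in coding sequence was not tested.

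The shared exons had the same strand pattern. Among those 436, the RNA strand held AGATCG in 50 (11.5%, 8.81 to 14.8) and the complement in 4 (0.917%). The U87MG-only share minus the shared share was -1.99 percentage points for AGAT (Newcombe 95% interval -8.62 to 4.18), -4.89 for AGATC (-12.5 to 2.95), -2.03 for AGATCG (-6.59 to 3.15) and -1.58 for AGATCGG (-4.43 to 1.87). All 4 intervals include 0, and they leave room for a U87MG-only share of AGATCG that is lower by 6.59 points or higher by 3.15. In the whole lists the RNA strand of 274 of 2573 T98G exons (10.6%) and 31 of 397 K562 exons (7.81%) held AGATCG. These intervals count exons only, and exons of 1 gene are not independent.

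Exon width matters for such shares, since a wide exon holds any 6 letters more often. Against all 320974 distinct annotated coding exons of at least 36 bp, grouped by width, the U87MG-only share of AGATCG was higher in each of 5 width groups. From 36 to 99 bp it was 6 of 52 exons (11.5%, 5.4 to 23) against 0.979% of annotated exons. From 100 to 149 bp it was 3 of 59 (5.08%, 1.74 to 13.9) against 1.62%, and from 150 to 199 bp 2 of 37 (5.41%, 1.50 to 17.7) against 2.34%. Here the counts are small, and the interval of the second of these groups includes the annotated share. From 200 to 499 bp it was 3 of 44 (6.82%, 2.35 to 18.2) against 3.24%, again inside the interval. At 500 bp or more it was 8 of 41 (19.5%, 10.2 to 34.0) against 10.8%, also inside it. The gap was widest, as a ratio, in the narrowest exons. Expression of the genes was not matched here, and the part of gene expression in these differences was not tested.

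**Figure D1:**
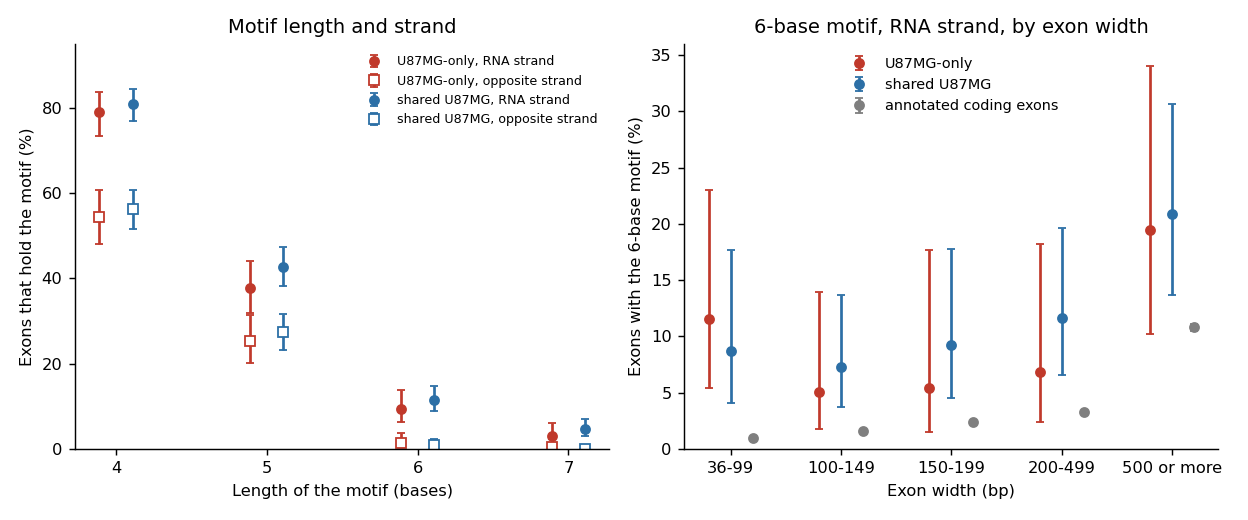
The left panel plots the percent of exons that hold a motif of 4 to 7 bases (y axis) by its length, for U87MG-only (red) and shared (blue) exons, on the RNA strand (filled circles) and the opposite strand (open squares). The right panel plots the percent with the 6-base motif on the RNA strand by exon width in bp, with all annotated coding exons in grey; bars are 95% Wilson intervals. Red and blue sit close together at each length, and both lie above grey in each width group.

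Other letters beside AGATCG stood out when all 6-letter words were ranked, a ranking made after the motif counts were known. For each word, the number of U87MG-only exons that hold it on the RNA strand was set against the number that the annotated share in each width group would give. Among 2910 words found in at least 10 of these exons, the highest ratio was that of ATCGGA, in 17 exons against 4.99 (3.41 times). AATCGG (12 against 4.04), TATCGA (10 against 3.49), TCGGAA (21 against 7.57) and AGATCG (22 against 8.18, 2.69 times) followed. ATCGGA and TCGGAA continue AGATCG to the right with overlapping letters. At least 1 of these 3 overlapping words was in 45 exons (19.3%, 14.8 to 24.9) and in 102 shared exons (23.4%, 19.7 to 27.6).

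By absolute excess, purine-rich words led. GAAGAG was in 81 U87MG-only exons against 40.2 from annotated shares and in 26 on the opposite strand. AGAAGA (80 against 48.7) and AAGAGC (57 against 26.4) came next. GAAGAG and AAGAGC also ranked 1 and 3 by excess among shared exons. Besides being purine-rich, these words continue TCGGAA to the right with overlapping letters, as TCGGAA continues AGATCG. Over whole exons, purines made up a median of 54.6% of bases on the RNA strand in U87MG-only exons and 53.6% in shared exons. Neither the part of base composition nor that of adapter letters beyond AGATCGG in these word counts was tested.

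A single word differed between the groups by more than its interval. GATCGG was in 11 U87MG-only exons (4.72%) against 41 shared exons (9.4%), a difference of -4.68 points (-8.41 to -0.413). It was singled out after 9 words had been compared in this way, and no correction for their number was made. The longer word AGATCGGA was in 5 U87MG-only exons (2.15%) and 10 shared exons (2.29%), against 0.143% of annotated coding exons of any width, and in 0 of either group on the opposite strand.

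The U87MG-only exons were mostly internal coding exons. Of the 233, 221 held coding sequence (94.8%, 91.2 to 97.0), 156 of them over their whole length, and the shared exons gave 402 of 436 (92.2%), a difference of 2.65 points (-1.58 to 6.28). A further 4 were in a 5′ UTR, 2 in a 3′ UTR and 6 were exons without coding sequence. In the annotation's canonical transcript 199 were internal, 16 were last and 4 were first exons, and 14 were in no canonical protein-coding transcript. With each transcript counted once, these exons came from 206 canonical transcripts with a median of 22 exons. Shared exons gave 23 over 358 transcripts, and all annotated canonical protein-coding transcripts gave 8. A gene with more exons has more chances to enter an exon list, which this comparison does not take into account. Both ends of 217 of the exons coincided with an annotated exon.

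Width was close to that of shared exons. The median was 156 bp with quartiles of 106 and 313, against 170 bp with quartiles of 120 and 370. The 5 widest were exons of KAT6B, a histone acetyltransferase (4134 bp), B4GALT6, a lactosylceramide synthase (3515 bp), MAML1, a Notch coactivator (3392 bp), NHS (2982 bp) and NKTR (2883 bp). The narrowest were in BAI2, an adhesion G protein-coupled receptor (36 bp), EPB41L2, a membrane skeleton protein (36 bp), ITGAV (46 bp), ULK4 (52 bp) and WDFY3, an autophagy adaptor (55 bp, tied with MORC2). GC content was similar too, with a median of 45.2% against 44.4%.

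**Figure D2:**
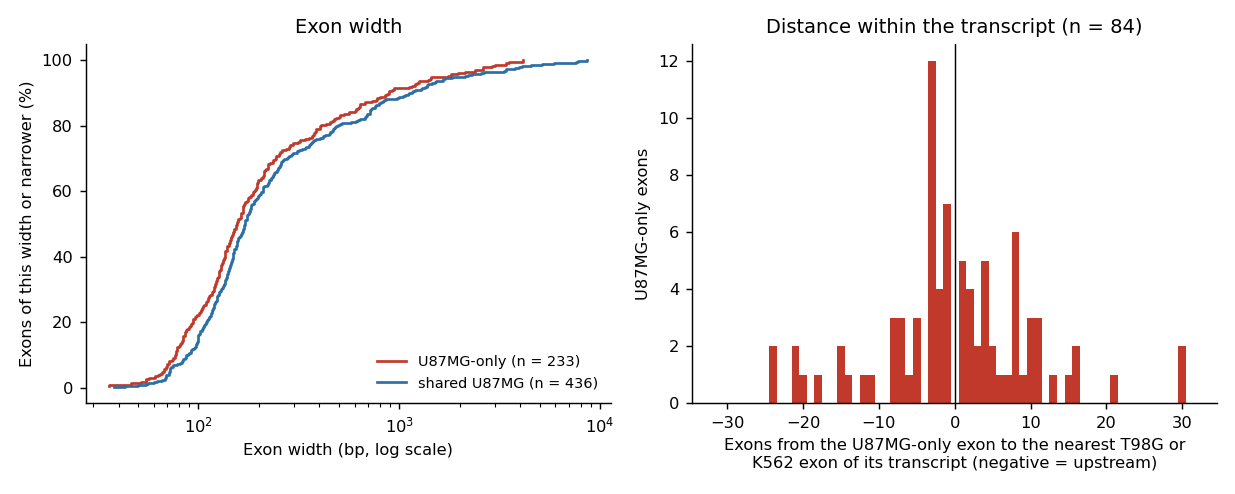
The left panel plots the cumulative percent of exons by width in bp (log axis) for the 233 U87MG-only (red) and 436 shared (blue) exons, whose curves run close together. The right panel counts U87MG-only exons (y axis) by how many exons away the nearest T98G or K562 exon of the same transcript lies (x axis, negative means upstream), for the 84 that have one.

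The rule left no borderline cases of partial overlap. Each of the 436 shared exons was covered over its whole length by a T98G or K562 exon, so the sharing was all or none. The shared exons with the fewest bases in common were those of FBXO7 (38 bp), KIAA1715 (43 bp), KIAA0368 (50 bp), NEDD4 and RIF1 (55 bp each). On the other side, the kept exons nearest to another line's call were in TUFM, a mitochondrial translation factor (88 bp away), SEC24C, a COPII coat protein (194 bp), MYCBP2, a ubiquitin ligase (298 bp), FAM178A (390 bp) and ASCC3, a helicase (592 bp). In these 5 genes the nearest call was in T98G and on a neighbouring exon of the same gene. They were exceptions: 6 of 233 lay within 1000 bp, and the median distance was 128 kb.

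Many of the genes, though, were called in another line at another exon. Of the 233 exons, 84 (36.1%, 30.2 to 42.4) belong to a gene with a different exon in the T98G or K562 list: 68 in T98G alone, 13 in both and 3 in K562 alone. For the remaining 149 the gene itself was in neither list. Counted by symbol, 77 of 225 (34.2%, 28.3 to 40.6) were in the T98G or K562 list, where 9.12% of all annotated protein-coding genes were. Genes with many exons have more chances to be listed, and the share among genes of like exon number or expression was not tested. The nearest exon called in another line was the neighbouring exon in 12 cases (7 upstream, 5 downstream), 2 or 3 exons away in 22 and farther in 50, with a median of 5 and a largest step of 30 exons. A step of 3 exons upstream was the most frequent value, in 12 cases.

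A pair of U87MG-only exons was found in 13 genes, and no gene had more than 2. None of the pairs sat on neighbouring exons; the exons of each pair were between 3 and 31 exons apart, and 8 of the 13 genes also had a T98G or K562 call. In NUP188, a scaffold nucleoporin of the nuclear pore, exons 9 and 19 of 44 were U87MG-only, exon 8 was shared and exon 20 was called in another line only. In IKBKAP, which encodes the scaffold of the Elongator complex, exons 6 and 34 of 37 were U87MG-only and exon 14 was shared. In DOCK5, an activator of Rac, exons 10 and 17 of 52 were U87MG-only, exon 2 was shared and exon 25 was called elsewhere only. In CIT, the cytokinesis kinase, exons 8 and 39 of 48 were U87MG-only and exons 29 and 48 were called elsewhere.

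In the other genes with a pair, the paired exons were not neighbours either, and their spacing varied. MAP4K3, a kinase upstream of JNK and TOR signalling, had exons 16 and 32 of 34 in U87MG and exons 1, 13 and 34 elsewhere. ULK4, a pseudokinase, had exons 10 and 26 of 37 and exon 2 elsewhere. WDR59, a subunit of the GATOR2 complex, had exons 12 and 19 of 26 and exon 16 elsewhere. ZZEF1 had exons 12 and 31 of 55 and exons 42 and 55 elsewhere. No other line called an exon of CSMD2, a membrane protein with CUB and sushi domains (exons 48 and 62 of 71). The same held for CCDC93, an endosomal sorting factor (12 and 15 of 24), and FAM208A, a subunit of the silencing complex HUSH (1 and 19 of 24). It also held for SECISBP2, a factor in selenoprotein synthesis (9 and 16 of 17), and CEP250, a centriole linker protein (20 and 28 of 36).

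**Figure D3:**
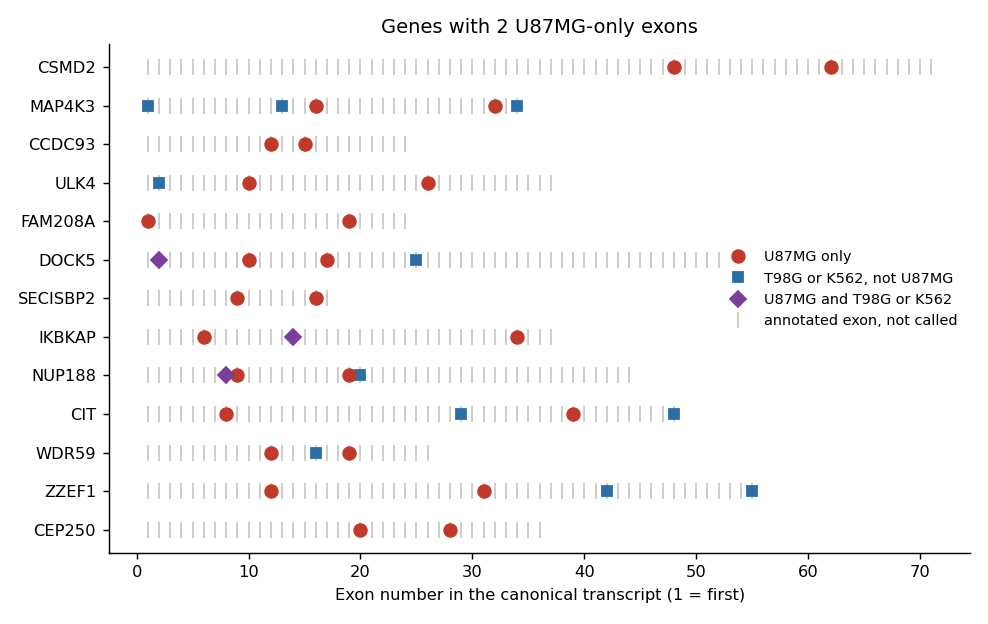
Each line is 1 of the 13 genes, with a tick for every exon of the canonical transcript (x axis, exon number). Red circles are U87MG-only exons, purple diamonds are exons called in U87MG and another line, and blue squares are exons called in another line only. In NUP188 the circles sit next to a diamond and a square, while in the other genes they stand apart from other calls.

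One U87MG-only exon belongs to PRC2 itself. EZH1 is the paralog of EZH2 and can replace it as the catalytic subunit. Exon 13 of 21 of EZH1 was called in U87MG (chr17:40861864-40861955, minus strand, 92 bp, all coding), in no other line, and the gene is also among the full-length targets of T98G. The exon is printed because its gene is the closest relative of the precipitated protein, with the letters AGAT in capitals.
EZH1, exon 13: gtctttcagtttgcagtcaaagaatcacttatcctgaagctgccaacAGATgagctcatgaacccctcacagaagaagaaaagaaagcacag
It holds a single AGAT and no longer match, and it ends in a purine-rich stretch. No other PRC2 gene of the list examined had a U87MG exon, shared or not.

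Of the 225 gene symbols, 40 were in at least 1 of 12 gene lists and 185 were in none. Extracellular matrix and adhesion genes gave 8 symbols (3.56% of 225) against 3 among the shared exons (0.748% of 401), a difference of 2.81 points (0.554 to 6.15). They were ITGAV, ADAM23, VCAN (the proteoglycan versican), ADAM28, COL15A1 and COL1A1 (collagen chains), LTBP2 and LTBP4 (latent TGF-beta binding protein family). ITGAV was the only 1 of the 8 with another exon in the T98G or K562 list. The exons of ITGAV, ADAM23 and COL1A1 held AGATCG, against 22 of all 233 U87MG-only exons (9.44%), and exon width was not matched. Relative to shared exons, chromatin regulators went the other way, with 3 symbols (1.33%) against 17 (4.24%). The difference was -2.91 points (-5.50 to 0.0600, which includes 0). The 3 were KAT6B, KMT2D, a histone H3 lysine 4 methyltransferase, and BPTF, a remodeler subunit. The list leaves out other chromatin genes of both groups, such as EZH1 and FAM208A among U87MG-only exons and HELLS among shared exons. Its counts hold for the list only. Both differences are relative to the shared exons only. Of 20149 annotated protein-coding genes, 242 were in the matrix and adhesion list and 99 in the chromatin regulator list. These are 2 of 12 lists, the lists were drawn up with earlier results known, and no correction for their number was made.

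As for chromatin regulators, the interval of the difference included 0 for each of the other lists. The ubiquitin system had 8 symbols against 20 (3.56% and 4.99%, difference -1.43 points, -4.55 to 2.30), among them TRIM33, FBXO11, HECW2 and HERC6. The list of motor and cilium genes, matched by symbol, had 8 against 10 (3.56% and 2.49%, difference 1.06 points, -1.62 to 4.55), among them KIF14, KIF21B, CENPO and IFT80. It also takes in genes outside its name, such as the centromere genes CENPO and CENPK among the 8 and MYOF among the 10. These counts therefore hold for the list only. RNA processing genes had 4 against 15 (1.78% and 3.74%, difference -1.96 points, -4.54 to 1.11); the 4 were PRPF8, a core spliceosome protein, RBM39, THOC2, an mRNA export factor, and RBMX. Transporters and pumps had 4 against 7 (ATP2C1, ATP2B1, ABCD4, ABCA5) and zinc finger factors 3 against 5 (ZNF638, ZNF219, ZNF710). Glioma driver genes gave 0 against 2 and ribosomal protein genes 0 against 1. Among 20149 annotated protein-coding genes, the ubiquitin list held 379, motor and cilium genes 219 and RNA processing genes 260. Transporters and pumps held 497, zinc finger factors 587, glioma drivers 26 and ribosomal proteins 82. The histone list matched only 2 annotated genes, so its 0 in both groups carries no information. RBMX has many near-identical copies, and the exons named MARK2P4 and SEPT10P1 are pseudogenes, so reads at these 3 may belong to another copy.

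Only 1 of the 233 exons was an annotated small RNA, MIR1267, a 78 bp hairpin on the minus strand of chromosome 13 (chr13:108183519-108183596). It was picked out after the annotation had been seen. Its mature miRNA is printed from RefSeq (GRCh38.p14), with the seed, bases 2 to 8, in capitals, because it is the one member for which a small RNA product is known.
hsa-miR-1267: cCUGUUGAaguguaaucccca
Whether the reads at MIR1267 were the mature form cannot be read from the list.

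The knockdown table asks whether genes with a U87MG-only exon changed when EZH2 was targeted in the same line. The authors' deposited table lists genes at an adjusted p of 0.05, with a log2 fold change of siEZH2 over siGFP and no error. It has no row for EZH2, so the knockdown could not be checked, and the treatment label of 1 siEZH2 library names EZH3 where its title names EZH2. In the authors' deposited table were 28 genes with a U87MG-only exon (30 exons), or 12.4% of the 225 symbols (8.75 to 17.4), and 6.30% of all annotated protein-coding genes. Among shared exons it was 47 genes (11.7% of 401, 8.93 to 15.2). Expression was not matched in the comparison with all annotated genes.

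Of the 28 genes, 9 were higher and 19 lower under siEZH2 in the authors' deposited table. The lower share was 67.9% (49.3 to 82.1), and 50.7% over all 1342 rows of the authors' deposited table, which lies inside that interval. Among genes with a shared exon 39 of 47 were lower (83.0%, 69.9 to 91.1). The share of higher genes was 32.1% against 17%, a difference of 15.1 points with an interval of -4.22 to 35.3; 5 genes are in both groups. With an absolute log2 fold change of at least 1 required, the direction turned: 6 of 7 genes were higher, as were 346 of 468 rows of the authors' deposited table (73.9%).

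Among these 28 genes, the 5 largest increases in the authors' deposited table were in IGSF3, an immunoglobulin superfamily membrane protein (1.27), MCTP1, a calcium-binding membrane protein (1.24), VCAN (1.20), CIT with its 2 exons (1.20) and KRT79, a keratin (1.03). The 5 lowest of the 28 in the authors' deposited table were MYCBP2 (-1.13), ASCC3 (-0.97), HUWE1, a ubiquitin ligase (-0.96), WDR52 (-0.94) and DOCK3 (-0.91). The 19 lower values ran from -1.13 to -0.45 with a median of -0.75, and the 9 higher values from 0.56 to 1.27 with a median of 1.03, in the authors' deposited table. ARHGAP11B (1.01 in the authors' deposited table) has a near-identical parent gene, ARHGAP11A, and its reads are uncertain. DROSHA, the nuclear RNase that cuts miRNA precursors, stood at -0.74 in the authors' deposited table.

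Genes called in another line and genes called in U87MG alone were mixed in direction. Of the 16 genes with no exon in the T98G or K562 list, 7 were higher and 9 lower in the authors' deposited table. Of the 12 with such an exon, 2 were higher (CIT and ARHGAP11B) and 10 lower. The difference in the share of higher genes was 27.1 points, with an interval of -7.82 to 53.1 that includes 0, and the split was made after the values had been seen. DOCK3, ITGAV and TM9SF3 were the 3 exons that both held AGATCG and had a gene in the table, and all were lower (-0.91, -0.88 and -0.45 in the authors' deposited table).

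**Figure D4:**
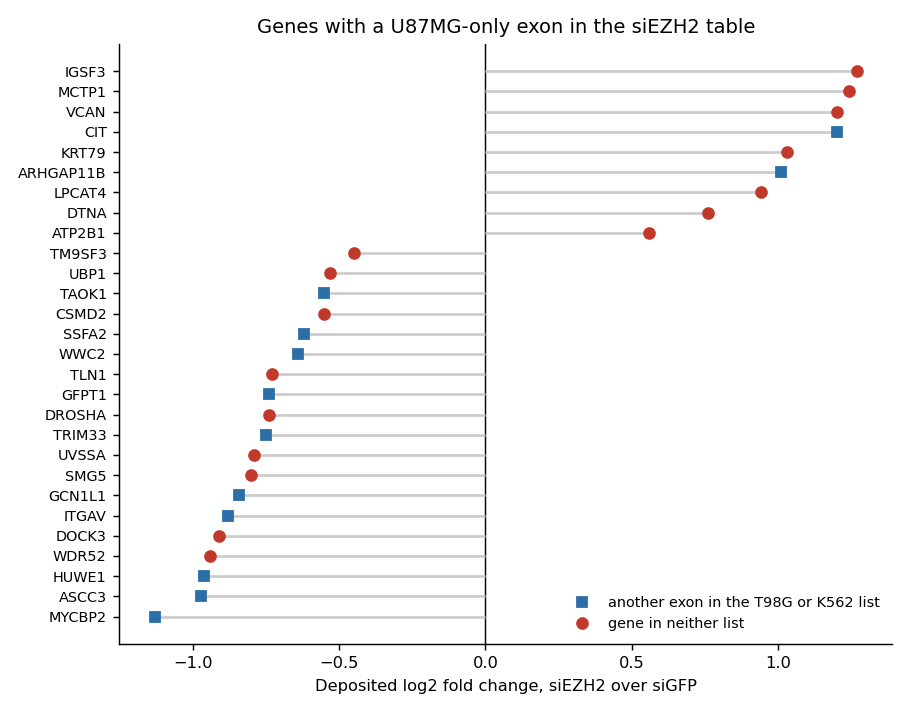
Each point is the log2 fold change (x axis, siEZH2 over siGFP, the authors' deposited table) of 1 of the 28 genes with a U87MG-only exon. Blue squares are genes with another exon in the T98G or K562 list and red circles are genes in neither list; 10 of the 12 squares and 9 of the 16 circles lie below 0.

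Retained introns in U87MG were listed by the authors beside their small RNA exons, each with a score whose scale is not stated. All 42 distinct introns touch a U87MG exon, so contact itself comes from how the list was made; what the rule did not use is how they divide between the exon groups. A listed intron bordered 17 of the 233 U87MG-only exons (7.30%, 4.60 to 11.4) and 23 of 436 shared exons (5.28%, 3.54 to 7.79), or 5.98% of all 669, a difference of 2.02 points (-1.66 to 6.45).

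The side of the intron differed between the groups. The 17 U87MG-only exons had 18 borders, since MICAL3 had a listed intron on both sides, and the intron was downstream of the exon at 12 (66.7%, 43.7 to 83.7). At the shared exons it was downstream at 8 of 25 borders (32.0%, 17.2 to 51.6). The difference was 34.7 points, with an interval of 4.52 to 57.2 that covers counting error only. The 2 groups of borders share 1 intron, that of NUP188. Many upstream introns of shared exons were first introns, before exon 2 of the canonical transcript (LRIG2, DOCK1, UPF1, PPM1B, WDR34, PPP2R5A, KYNU and DOCK5). The upstream introns of U87MG-only exons lay before exons 5, 7, 9, 16, 48 and 59. The part of exon position in the difference was not tested. This comparison was made after the sides had been seen.

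With each exon taken at its higher score, the 5 highest among U87MG-only exons were those of MICAL3, a flavin monooxygenase of the MICAL family (2.68, intron at chr22:18367123-18368645, downstream of exon 16, and 1.84 for the intron upstream), THOC2 (2.44, downstream of exon 12), SPIRE1, an actin nucleator (1.91, upstream of exon 5), NUP188 (1.71, upstream of exon 9) and CSMD2 (1.65, upstream of exon 48). In NUP188 the listed intron lies between its shared exon 8 and its U87MG-only exon 9. AGATCG was found in 1 of the 17 exons, against 22 of all 233 U87MG-only exons (9.44%). The scores of the 2 groups overlapped, from 1.03 to 2.68 with a median of 1.41 for U87MG-only exons and from 1.05 to 2.61 with a median of 1.45 for shared ones. KRT79, WDR52 and CSMD2 were also in the siEZH2 table (1.03, -0.94 and -0.55 in the authors' deposited table).

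**Figure D5:**
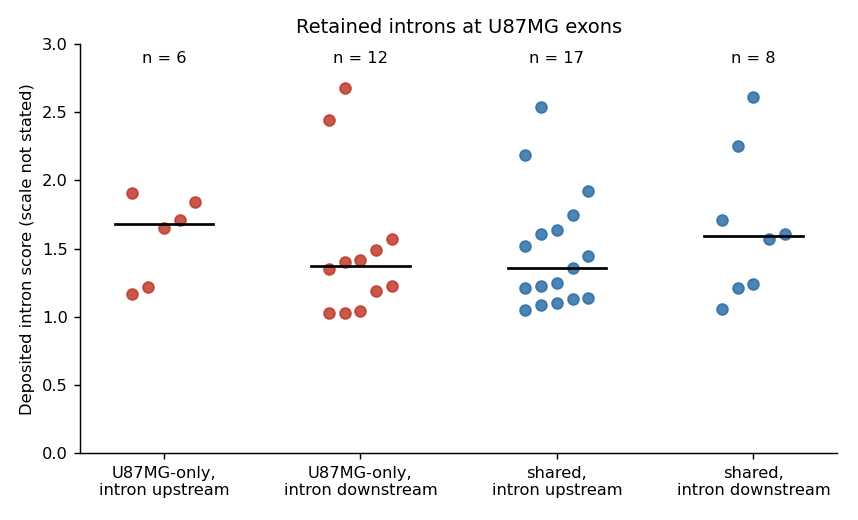
Points are the deposited scores (y axis, scale not stated) of retained introns at U87MG exons, by exon group and by the side of the exon on which the intron lies; black lines are medians. Introns lie downstream at 12 of 18 U87MG-only borders and at 8 of 25 shared borders, while the scores overlap.

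The full-length target list comes from T98G, so these exons were not called there as small RNA although their genes may be listed as full-length targets. That was so for 34 exons (14.6%, 10.6 to 19.7) and for 78 shared exons (17.9%, 14.6 to 21.8), a difference of -3.30 points (-8.84 to 2.79). By symbol, 32 of 225 genes were in the full-length list (14.2%, 10.3 to 19.4), where 4.27% of annotated protein-coding genes were; as above, expression and gene length were not matched. Among the first 10 of the 34 exons in genome order were those in BAI2, SMG5 (a nonsense-mediated decay factor), HEATR1, UVSSA (a repair factor), AARS2, MDN1 (a ribosome assembly ATPase), NUP205 (a nucleoporin), TLN1 (talin, which links integrins to actin) and IKBKAP. In 5 of the 34 cases the gene was also in the siEZH2 table: SMG5 (-0.80), UVSSA (-0.79), TLN1 (-0.73), GCN1L1 (-0.84) and HUWE1 (-0.96), all lower in the authors' deposited table. This was 14.7% of the 34 exons (6.45 to 30.1), against 21 of the 78 shared exons in a full-length target (26.9%, 18.3 to 37.7), a difference of -12.2 points (-25.8 to 5.43). The 12 genes of those shared exons were likewise all lower in the authors' deposited table, where 50.7% of all rows were lower.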

How the data were processed

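The authors deposited 6 lists of hg19 regions: small RNA exons for U87MG, T98G and K562, T98G full-length targets, U87MG retained introns and the siEZH2 table. Base calling with CASAVA 1.8 and calling with DESeq2 are named in the submitters' processing notes; thresholds are not given in the sources used here. The table's log2 fold changes and the introns' score are as the authors deposited them, and 0 columns hold values of single libraries.

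Here overlaps of at least 1 base, annotation (GENCODE release 44 on GRCh37, CDS of any transcript counting as coding), gene names and motifs were computed in Python 3.11.15 with pandas 2.3.3, numpy 2.4.6 and pysam 0.24.0; functions were tested on simulated data. The exon number is that of the annotation's canonical transcript. Shares have 95% Wilson intervals and differences Newcombe intervals, for counting error only. No test over regions was made.

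The members and gene lists were chosen with earlier results of these data known. Named were genes with 2 members, coding motif sites (the first 12), the 5 highest and 5 lowest log2 values, the 5 exons with the highest intron scores, the first 10 full-length targets, 4 genes per list, the 5 widest and narrowest exons and the 5 on each side of the rule; other names were chosen after values were seen. The sequence at 1 of these sites and 1 of these target names are not reported here.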

Additional observations from a re-analysis of the deposited data

How the results depend on the processing

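The number of U87MG-only exons stayed at 233 with overlap on the same strand only or with 50% of the exon required, and was 227 with a margin of 1000 bp. The coding share was 94.0% with basic transcripts, and genes called in another line stayed at 36.1% by gene bodies. AGATCG on the RNA strand ranged from 9.44% to 9.69% and on the opposite strand from 0.909% to 1.32%, with 25 bases added at each end, 1 exon per gene or the 1000 bp margin. On either strand, 17 exons bordered a retained intron and 35 lay in a full-length target. One choice moved a result: with an absolute log2 fold change of at least 1 in the authors' deposited table, 7 genes were left and 85.7% of them were higher, against 32.1% of 28; matching by coordinates left both values as they were. No paired analysis was possible because the lists carry no values of single libraries, and for the same reason no library could be left out in turn. Read depth is unknown, so an exon missing from a list may have been covered too thinly.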
